A study of Mus musculus with 33 samples.

Results

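The mouse mitochondrial genome carries 37 genes, and their transcripts are described here across 33 RNA sequencing libraries of cultured mouse retinal progenitor cells. The members were taken by position, as every gene placed on the mitochondrial chromosome (MT) in the deposited abundance tables, without use of any measured value. They comprise 13 protein-coding genes, 2 ribosomal RNA (rRNA) genes and 22 transfer RNA (tRNA) genes, out of 47729 genes counted. All cells came from the retina of C57BL/6J mice at embryonic day 14, the labelled cell type is the retinal progenitor cell, and the values compared are raw read counts per gene. At day 0 there were untreated cells, cells primed for cone induction with COCO protein, which is secreted and blocks BMP, Wnt and TGF-beta ligands, and cells primed for rod induction with taurine and retinoic acid. Cells under cone induction with COCO protein and cells under rod induction with taurine and retinoic acid were then sequenced at days 5, 12, 21 and 35, which makes 11 groups of 3 libraries. The labels do not say whether the 3 libraries of a group came from separate cultures or animals, so the p-values measure the spread between these libraries, which may be technical. No untreated cells were sequenced after day 0, so the induction and the time in culture cannot be told apart within a condition.

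Mitochondrial DNA is a small circle that is present in many copies in each cell. The mitochondrial RNA polymerase copies each strand into a long RNA, and enzymes cut the tRNAs out of it, which releases the rRNAs and mRNAs that lie between them. The mRNAs encode core subunits of complexes I, III and IV of the respiratory chain and of the ATP synthase (complex V), and all the other subunits are made from nuclear genes and imported. The tRNAs and rRNAs serve the translation of these few mRNAs inside the organelle. Photoreceptors are among the cells richest in mitochondria, which they pack into the inner segment.

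The sequences that the results below turn on are the tRNAs that differed between groups and the mRNAs that have a copy in a nuclear chromosome. Of the tRNA genes with a call described below, 4 are printed first, 5′ to 3′ on the strand of the gene, with the anticodon in capitals, as found in the GENCODE M21 transcripts (build GRCm38). mt-Tm decodes methionine, mt-Td aspartate, mt-Tt threonine and mt-Tp proline. mt-Tm lies at MT:3845-3913 on the plus strand, mt-Td at MT:6942-7011 on the plus strand, mt-Tt at MT:15289-15355 on the plus strand and mt-Tp at MT:15356-15422 on the minus strand. The mt-Tt and mt-Tp genes are direct neighbours on opposite strands.
mt-Tm: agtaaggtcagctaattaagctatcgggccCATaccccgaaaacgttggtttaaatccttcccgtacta
mt-Td: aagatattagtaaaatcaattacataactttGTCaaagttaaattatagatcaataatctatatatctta
mt-Tt: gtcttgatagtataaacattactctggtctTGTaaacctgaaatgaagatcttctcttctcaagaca
mt-Tp: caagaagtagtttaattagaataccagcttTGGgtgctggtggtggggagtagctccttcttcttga

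The second set shows how closely nuclear copies resemble mitochondrial mRNAs, which bears on how far each mRNA could be counted. A stretch of chromosome 1 holds unprocessed pseudogenes that match mitochondrial genes nearly base for base, while copies elsewhere, as on chromosome 4, differ at many bases. mt-Nd4l (MT:9877-10173, plus strand), a complex I subunit gene, and its pseudogene Gm10222 (chr1:24612407-24612700) were identical over 294 bases, and their first 100 bases are printed. mt-Cytb (MT:14145-15288, plus strand), the only mitochondrial gene of complex III, and its pseudogene Gm11410 (chr4:80003989-80005131) were 92.9% identical over 1142 bases. The printed window of 100 bases starts at base 2 of both and holds 5 mismatches, which are in capitals.
mt-Nd4l: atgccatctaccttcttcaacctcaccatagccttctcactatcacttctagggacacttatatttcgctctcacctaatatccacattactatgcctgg
Gm10222: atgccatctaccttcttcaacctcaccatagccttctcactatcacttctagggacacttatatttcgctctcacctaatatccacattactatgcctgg
mt-Cytb: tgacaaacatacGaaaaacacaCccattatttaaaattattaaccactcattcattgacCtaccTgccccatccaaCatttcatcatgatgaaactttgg
Gm11410: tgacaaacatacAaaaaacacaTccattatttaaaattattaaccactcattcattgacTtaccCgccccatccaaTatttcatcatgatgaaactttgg

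Depth was 7511837 to 19166442 gene counts (median 12985662), and genes received 26.9% to 34.9% of all counted reads. A set of 357 nuclear genes annotated over rRNA sequence took 5.04% to 20.7% of gene counts. A gene with no count in a library could still have a level of up to 3 counts, which equals 0.174 to 0.407 CPM depending on the library (CPM is the usual count scaled to a fixed library size, here after TMM scaling). Of the 37 genes, 24 passed the filter on low counts that edgeR applies by group. These were all 13 protein-coding genes, both rRNAs and 9 tRNAs. The photoreceptor list of 8 markers was expressed in all day 0 groups (summed CPM 507 to 1110 across those 9 libraries) and low at day 35 in both conditions (7.42 to 34.3), with Nr2e3 and Arr3 at 0 in all rod libraries of day 35. The progenitor list of 9 markers stayed in use, with summed CPM of 1458 to 1642 in cone and 1715 to 1764 in rod libraries at day 35. Progenitor markers were thus present at day 35 while defining photoreceptor markers were low or at 0. On earlier days the photoreceptor list was not low throughout. Its sums were 1255 to 1623 CPM in cone and 593 to 1044 CPM in rod libraries of day 5. At day 12 they were 66.5 to 295 and 68.4 to 997 CPM, and at day 21 17.2 to 111 and 12.2 to 18.1 CPM. On all days the cone and rod of the group names refer to the induction and do not name the cells. In bulk libraries such as these, fewer cells of a type and less RNA per cell cannot be told apart.

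Mitochondrial transcripts made up a large and variable part of all gene counts, and nearly all of that part was rRNA. The 37 genes together took 7.42% to 21.0% of gene counts, with a median of 12.4%. The 2 rRNAs alone took 6.67% to 18.0%. The 13 mRNAs took 0.743% to 3.01%, and the 22 tRNAs took 0.000873% to 0.00431%, or 92 to 657 counts per library. Each class is given as a share of gene counts below, since the sum over a class has no test of its own.

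The mRNA share was lowest in primed cells and higher on the later days. It was 0.861%, 1.50% and 1.13% in the 3 untreated libraries. It was 0.743%, 0.982% and 1.06% in cone primed cells and 0.969%, 0.929% and 0.829% in rod primed cells. The groups of primed cells lay within or below the range of the untreated cells. Under cone induction the share averaged 1.32% on day 5, 1.96% ± 0.253 (SD, n = 3) on day 12, 1.49% on day 21 and 1.24% ± 0.418 on day 35. Under rod induction it averaged 1.72% on day 5, 2.26% ± 0.673 on day 12, 1.86% on day 21 and 2.04% ± 0.387 on day 35. The cone share was highest at day 12 and overlapped with the primed cells at day 35, where the 3 libraries gave 0.847%, 1.68% and 1.19%. The rod libraries of day 35, at 1.84%, 1.80% and 2.49%, were all above every cone library of that day and above every primed library. The ratio of the cone to the rod mean was 1.02 in primed cells and 0.763, 0.866, 0.802 and 0.607 on days 5, 12, 21 and 35. The 3 cone and 3 rod libraries did not overlap at days 5, 21 and 35, and at day 35 neither did those of 27.9% of all genes. That share is not given for days 5 and 21, so the gaps of these days are descriptions only. Other gaps between libraries named below without such a share are descriptions as well. At day 5 the gap was small, with the highest cone library at 1.39% and the lowest rod library at 1.44%. The rod mean of that day included replicate 2 at 2.25%.

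**Figure D1:**
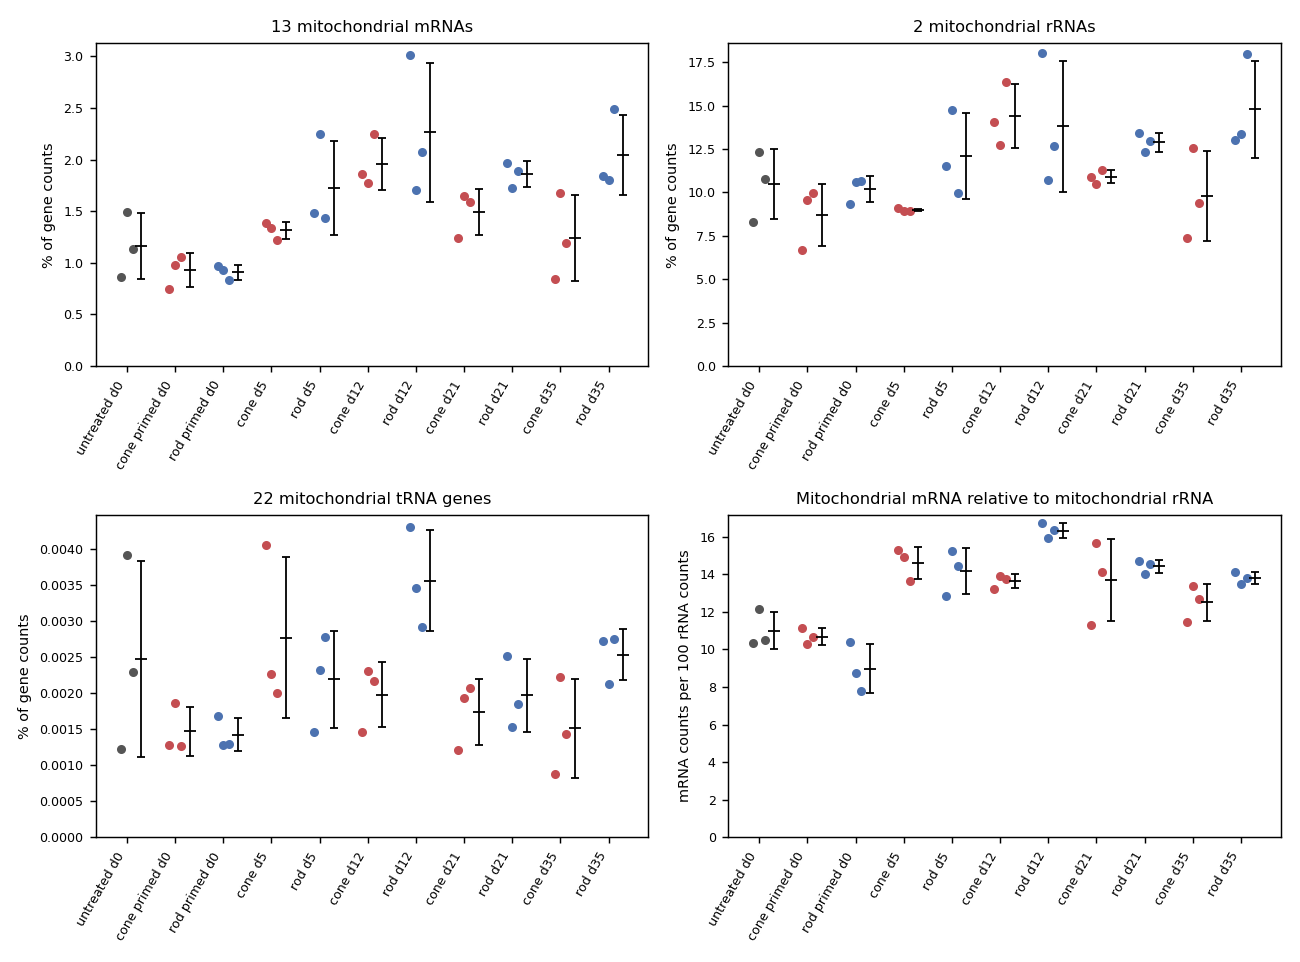
Percent of gene counts taken by the 13 mRNAs, the 2 rRNAs and the 22 tRNA genes, and mRNA counts per 100 rRNA counts, by group and day. Each point is a library (grey untreated, red cone, blue rod) and the bars are mean ± SD of 3. The mRNA share lies between 0.743% and 1.06% in primed cells, reaches means of 1.96% in cone and 2.26% in rod libraries at day 12, and averages 2.04% in rod and 1.24% in cone libraries at day 35.

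The rRNA share moved less than the mRNA share. It averaged 10.5% without treatment, 8.72% after cone priming and 10.2% after rod priming. Under cone induction it averaged 8.99%, 14.4%, 10.9% and 9.78% at days 5, 12, 21 and 35, and under rod induction 12.1%, 13.8%, 12.9% and 14.8%. The counts of mRNA relative to rRNA differed accordingly. After cone priming there were 10.7 mRNA counts per 100 rRNA counts, and after rod priming 8.99, against 14.6, 13.6, 13.7 and 12.5 in cone and 14.2, 16.3, 14.4 and 13.8 in rod cells at days 5, 12, 21 and 35. On none of these days did the libraries overlap with the primed libraries of their condition. Untreated cells, at 11.0, were close to cone primed cells. The nuclear rRNA-derived share of gene counts differed between these groups too. It averaged 16.8% after cone and 15.7% after rod priming. At days 5, 12, 21 and 35 it averaged 9.18%, 8.77%, 10.9% and 12.8% in cone and 8.92%, 8.83%, 9.82% and 13.6% in rod libraries. The part of rRNA carried into the libraries in these ratios was not tested.

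Levels in CPM per kilobase of gene, here without TMM scaling, split the mRNAs into an abundant set and a rare set. Of the 13, 7 were abundant, with medians over the 33 libraries of 2632 for mt-Co1 (complex IV, MT:5328-6872), 2537 for mt-Cytb, 2177 for mt-Nd1 (MT:2751-3707), 1602 for mt-Nd5 (MT:11742-13565), 1414 for mt-Nd2 (MT:3914-4951), 870 for mt-Nd4 (MT:10167-11544) and 462 for mt-Nd6 (MT:13552-14070). The mt-Nd genes all encode subunits of complex I, and mt-Nd6 is the only mRNA gene on the minus strand. The other 6 follow each other, with tRNA genes between some of them, MT:7013 to MT:10173, and had medians of 84.3 for mt-Co2 (complex IV), 15.6 for mt-Atp6 and 2.45 for mt-Atp8 (both ATP synthase), 5.46 for mt-Co3 (complex IV), 1.19 for mt-Nd3 and 2.02 for mt-Nd4l. Together these 6 gave 0.270% to 0.816% of all mitochondrial mRNA counts in a library. The rRNAs, with medians of 48450 for mt-Rnr1 (12S, MT:70-1024) and 39753 for mt-Rnr2 (16S, MT:1094-2675), stood far above every mRNA on this scale.

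These 6 genes are the ones covered by the near-identical block on chromosome 1 (chr1:24611535-24616197). The pseudogenes of that block were counted, in several cases more often than the mitochondrial gene. Gm28438 had a median of 238 counts per library against 5 for mt-Nd3, Gm10925 had 223 against 135 for mt-Atp6, and Gm10222, identical to mt-Nd4l in the window shown above, had 38 against 8. For mt-Co3 the median was 56 against 60 for Gm28437, and for mt-Co2 it was 663 against 39 for Gm28661. mt-Atp8 has no annotated pseudogene of its own there and lies between genes that do. How the authors' counting treated reads that fit both places is not given in the sources used here, so the levels and changes of these 6 are uncertain, and the results below rest mainly on the other 7. Among those 7, mt-Co1 is matched at 99% identity or more over 31.3% of its length and mt-Nd4 over 63.6%, and their levels are uncertain to that extent. The diverged copies on chromosome 4 took almost no counts: Gm11410, the mt-Cytb copy with mismatches shown above, had a median of 0 and a highest count of 2.

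**Figure D2:**
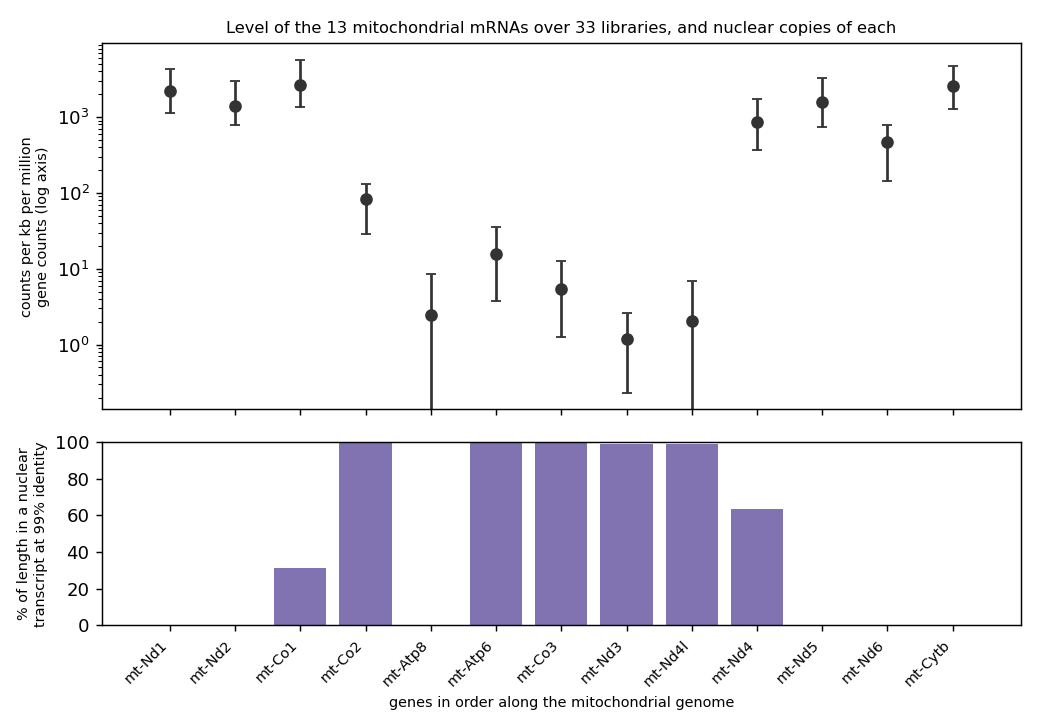
Top, level of each of the 13 mRNAs in CPM per kilobase of gene (no TMM scaling, log axis), as the median with a bar from the lowest to the highest of 33 libraries, in genome order. Bars of mt-Atp8 and mt-Nd4l leave the axis because their lowest count is 0. Bottom, percent of each gene that lies in an annotated nuclear transcript at 99% identity or more. The 6 genes of low level, with medians from 1.19 to 84.3, lie together inside the copied stretch, and the other 7 have medians of 462 to 2632.

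All 7 abundant mRNAs were higher at day 12 than in primed cells in both conditions, and the largest fold changes were those of mt-Nd6, mt-Nd5 and mt-Nd4, neighbours in the far part of the genome. Each later day is compared below with the primed cells of its own condition by edgeR's quasi-likelihood test with Benjamini-Hochberg adjustment over the 18150 genes tested, where called means an adjusted p under 0.05. Many other genes changed as well, so each count of members stands beside the percent of all genes called in the same direction.

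mt-Nd6 changed most among the 7. In CPM it was 71.6, 85.4 and 100.5 in the cone primed libraries and 328, 277 and 346 in the cone libraries of day 12. It was 98.2, 85.3 and 81.9 in rod primed libraries and 314, 281 and 486 in rod libraries of day 35. No later library of either condition overlapped with the primed ones. The log2 fold changes were 1.16 (SE 0.28), 1.88, 1.88 and 1.24 in cone cells and 1.04 (SE 0.28), 1.70, 1.93 and 2.03 in rod cells at days 5, 12, 21 and 35, all called (edgeR adjusted p from 1.25e-06 to 0.0115). The counting of strands is not stated for these files, so reads of mt-Nd6 and reads from the opposite strand at its place, which overlaps the end of mt-Nd5, cannot be told apart.

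mt-Nd5, the longest of these mRNAs, and mt-Nd4 followed. mt-Nd5 stood at 1269, 1599 and 1735 CPM in cone primed libraries, at 4370.2, 4019.8 and 5375 CPM at day 12 and at 1926, 4448 and 2819 CPM at day 35. All 6 induced libraries were above the 3 primed ones. In the rod condition mt-Nd5 stood at 1779, 1487 and 1399 CPM in primed libraries and at 4361, 3944 and 6123 CPM at day 35. Its log2 fold change was 1.58 (SE 0.27, adjusted p by edgeR 2.07e-05) at day 12 and 1.00 (SE 0.26, adjusted p 0.00208) at day 35 in cone cells. In rod cells it was 1.53 (SE 0.27, adjusted p 4.90e-05) at day 12 and 1.63 (SE 0.27, adjusted p 1.08e-05) at day 35. mt-Nd4 rose by log2 1.42 (SE 0.27) at day 12 and 0.90 (SE 0.26) at day 35 in cone cells, and by 1.60 and 1.68 (SE 0.27 each) in rod cells.

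mt-Cytb, the heme-carrying core of complex III, rose by log2 1.28 (SE 0.27) at day 12, 0.98 at day 21 and 0.81 at day 35 in cone cells. It rose by 0.98, 1.35, 1.21 and 1.65 at days 5, 12, 21 and 35 in rod cells. In CPM it went from 1832, 1577 and 1433 in rod primed libraries to 4345, 4229.6 and 6575 at day 35.

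The genes nearer the start of the heavy-strand transcript had smaller fitted changes, in rod cells at day 12 close to that of mt-Cytb. mt-Nd1 was at 1092, 1469 and 1530.3 CPM in cone primed libraries and at 2518, 2418 and 3380.4 CPM at day 12, a log2 fold change of 1.02 (SE 0.26, adjusted p by edgeR 0.00177). At day 35 it was at 1216, 2498 and 1597 CPM, which overlapped with the primed libraries and was not called. In rod cells of day 35 it was at 2582, 2655 and 3945 CPM against 1546, 1329.7 and 1241 in primed cells, a log2 fold change of 1.16 (SE 0.26). mt-Nd2 rose by log2 0.96 and 1.24 at day 12 in cone and rod cells. mt-Co1, the catalytic subunit of complex IV, rose by log2 1.18 (SE 0.25) and 1.28 (SE 0.26) at day 12, and by 1.26 (SE 0.26) at day 35 in rod cells, where it stood at 5985, 5377 and 7956 CPM against 2917, 2732 and 2390.2 in rod primed libraries. mt-Co2, inside the chromosome 1 block, was called higher at day 12 in both conditions and at days 21 and 35 in rod cells, with log2 fold changes of 1.02 to 1.47.

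Counted over the 7 mRNAs, 1, 7, 6 and 4 were called higher at days 5, 12, 21 and 35 in cone cells, with medians of 0.31, 1.28, 0.98 and 0.81 on the log2 scale. In rod cells 4, 7, 7 and 7 were called higher, with medians of 0.85, 1.35, 1.21 and 1.63. None of the 13 mRNAs was called lower on any of these days. Over all genes tested, 12.2%, 26.7%, 29.4% and 31.1% were called higher in cone cells on these days, and 8.76%, 24.2%, 27.2% and 29.4% in rod cells. Markers of several cell types moved over the same days, and the part of these markers in the changes was not tested. The 8 mesenchyme markers summed to 4.72 to 12.3 CPM in cone primed and 322 to 401 CPM in cone libraries of day 12, and to 4.84 to 11.6 and 56.5 to 178 CPM in the rod condition, with 6 and 5 of the 8 called higher. The 8 neuron markers summed to 1169.7 to 1517 CPM in cone primed libraries and 83.4 to 288 CPM at day 12. In the rod condition they summed to 717 to 787 and 78.5 to 443 CPM. Of these markers, 8 in cone and 6 in rod cells were called lower, beside 21.7% and 18.2% of all genes. The 8 photoreceptor markers summed to 524 to 924 CPM in cone primed libraries and 66.5 to 295 CPM at day 12. In the rod condition their sums were 507 to 1110 and 68.4 to 997 CPM. The 7 markers of Muller glia and astrocytes summed to 222 to 285 CPM in cone primed libraries and 668 to 1087 CPM at day 12, and to 432 to 468 and 837 to 956 CPM in the rod condition, with 6 and 5 called higher. Dcn of the mesenchyme list was at 0 in cone primed libraries and Aldh1l1 of the glial list in rod primed libraries. The nuclear rRNA-derived share of gene counts averaged 16.8% in cone primed and 8.77% in cone libraries of day 12, and 15.7% and 8.83% in the rod condition. With library sizes counted without the mitochondrial genes and the nuclear rRNA-derived genes, all 7 abundant mRNAs were still called higher at day 12, by a median log2 of 1.25 in cone and 1.33 in rod cells. The calls of day 5 depended on single libraries in the rod condition: without rod replicate 2 of day 5 no member was called, and without rod primed replicate 3 only 2 were. Without cone replicate 1 of day 35, the number of members called at day 35 in cone cells went from 6 to 10.

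**Figure D3:**
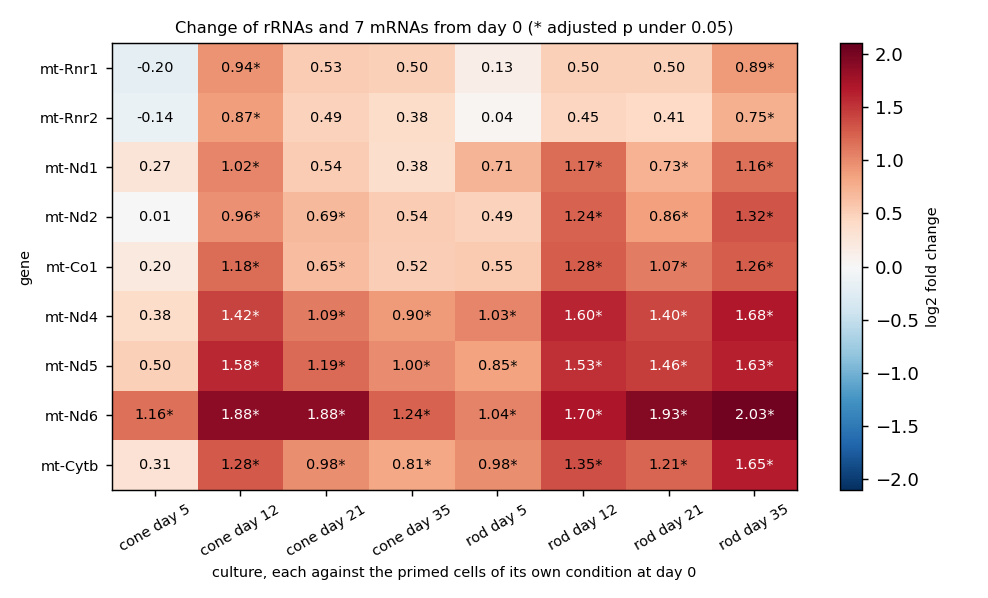
Log2 fold change of the 2 rRNAs and the 7 abundant mRNAs in genome order, for each later day against the primed cells of the same condition, with colour and printed value for the size and an asterisk for an adjusted p under 0.05. mt-Nd6 is called on all 4 days in both conditions, from 1.04 to 2.03, all 7 mRNAs are called at day 12, and the rRNAs are called in cone cells at day 12 and in rod cells at day 35.

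Within the mRNAs, counts of mt-Nd5 and mt-Cytb rose relative to those of mt-Nd1. mt-Nd5 counts per mt-Nd1 count averaged 1.16 ± 0.0120 (SD, n = 3) without treatment, 1.13 ± 0.0372 after cone priming and 1.13 ± 0.0163 after rod priming. The ratio was 1.33, 1.66, 1.77 and 1.71 in cone cells and 1.27, 1.45, 1.86 and 1.58 in rod cells at days 5, 12, 21 and 35. Every later library was above all 9 libraries of day 0 except rod replicate 2 of day 5, at 1.17. mt-Cytb per mt-Nd1 went the same way, from 1.26 (untreated), 1.21 (cone primed) and 1.17 (rod primed) to 1.63 and 1.65 in cone and rod cells at day 35. The share of mt-Cytb among the 13 mRNAs changed little by day 12, from 18.6% to 18.8% in cone and 18.0% to 18.3% in rod cells. mt-Nd6 per 1000 mt-Nd5 counts had means of 52.7 (untreated), 55.9 (cone primed) and 57.0 (rod primed). It averaged 88.2 at day 5 and 66.9 at day 35 in cone cells and 63.9 and 74.2 in rod cells, so the order of the conditions changed between these days. As a share of the 13 mRNAs, and averaged over both conditions, day 35 minus primed cells gave -2.84 percentage points for mt-Nd1 and 3.17 for mt-Nd5. In shares of the deposited TPM the same differences were -0.0972 and 0.378 percentage points. The 2 scales have unlike bases, since the median TPM was 88.8 for mt-Nd1 and 13465 for mt-Nd6. Sizes in percentage points can therefore not be compared between them. The ratios and shares by counts are taken within the organelle and do not depend on how many counts nuclear genes received.

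The rRNAs moved together and less than the mRNAs. mt-Rnr1 stood at 26679, 37894 and 40135 CPM in cone primed libraries and at 64495, 56140.0 and 79902 CPM at day 12. All 3 induced libraries were above the primed ones, and the log2 fold change was 0.94 (SE 0.25, adjusted p by edgeR 0.00292). mt-Rnr2 rose by log2 0.87 (SE 0.24, adjusted p by edgeR 0.00419) in the same comparison. In rod cells of day 35, mt-Rnr1 stood at 66378, 67152 and 98795 CPM against 40609, 42219 and 42587 CPM in primed cells, a log2 fold change of 0.89 (SE 0.25, adjusted p by edgeR 0.00373), and mt-Rnr2 rose by 0.75 (SE 0.24). In the other 6 comparisons of a later day with primed cells neither rRNA was called. The Pearson correlation of the log2 levels of the 2 rRNAs over the 33 libraries was 0.988, and those between the 7 abundant mRNAs ran from 0.848 to 0.990 with a median of 0.960 over 21 pairs. These libraries share depth and scaling, so the correlations are descriptions only. mt-Rnr2 counts per mt-Rnr1 count ran from 1.12 to 1.46, lowest in rod replicate 2 of day 5.

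The tRNAs gave few counts, so raw counts are given for them. The tRNA share of gene counts averaged 0.00148% ± 0.000341 (SD, n = 3) in cone primed and 0.00142% ± 0.000230 in rod primed libraries. It was highest in rod libraries of day 12, at 0.00357% ± 0.000699, where all 3 were above the rod primed libraries, and averaged 0.00151% ± 0.000682 in cone and 0.00254% ± 0.000350 in rod libraries of day 35. Untreated libraries, at 0.00122%, 0.00392% and 0.00229%, covered most of that range. Of the 22 genes, 4 (mt-Tk, mt-Tr, mt-Th and mt-Ts2) had no count in any library, and 7 had a mean of at least 10 counts per library. mt-Td and mt-Tm, 2 of the tRNAs printed above, had the widest spread. mt-Td had 2, 165 and 75 counts in the untreated libraries and 9, 3 and 6 in the rod primed libraries. It had 186, 141 and 158 counts in rod libraries of day 12 and 168, 132 and 194 at day 35, all above the rod primed libraries, a log2 fold change of 4.12 (SE 1.09, adjusted p by edgeR 0.00339) and 4.25 (SE 1.09, adjusted p 0.00169). In cone cells mt-Td went from 6, 31 and 8 counts in primed libraries to 31, 102 and 91 at day 35 and was not called. mt-Tm, whose tRNA also starts each mitochondrial protein, had 5, 1 and 4 counts in rod primed libraries, 31, 60 and 29 at day 12 and 32, 23 and 39 at day 35, with log2 fold changes of 2.93 (SE 0.98, adjusted p by edgeR 0.0178) and 2.69 (SE 0.99, adjusted p 0.0235). The spread within groups was large for both: untreated mt-Tm gave 4, 116 and 42 counts. Their log2 levels had a Pearson correlation of 0.847 over the 33 libraries, a description only.

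mt-Tq (glutamine) was called higher in rod cells at day 12 (log2 1.24, SE 0.46) and day 21 (log2 1.64, SE 0.45), and its highest count in any library was 66. mt-Ty (tyrosine) gave 28, 24 and 16 counts in the rod libraries of day 21 against 3, 8 and 7 in the primed ones, without overlap in CPM, and rose by log2 1.41 (SE 0.53, adjusted p by edgeR 0.0297). mt-Tp, printed above, gave 12, 35 and 18 counts in the cone libraries of day 35 against 32, 49 and 35 in the primed ones, and fell by 1.09 on the log2 scale (SE 0.39, adjusted p by edgeR 0.0199). Its neighbour mt-Tt gave 58, 24 and 36 counts in the rod libraries of day 12 and 4 to 27 in all other libraries, and rose by log2 1.54 (SE 0.46, adjusted p by edgeR 0.00904) against rod primed cells. mt-Ta, named after its values were seen, was called lower in cone cells at day 35, where its 3 counts over the group, against 21 in cone primed libraries, gave a ratio of 0.119 with a counting interval of 0.0228 to 0.400. mt-Tw (tryptophan) was not called in any comparison. mt-Tq, mt-Ty, mt-Tp and mt-Ta lie on the minus strand, and the counting of strands is not stated for these files. As for mt-Nd6, reads of these tRNAs and reads from the opposite strand at their places cannot be told apart.

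Mitochondrial mRNAs of day 35 were lower under cone than under rod induction, and no mitochondrial gene passed the test in primed cells, at day 5 or at day 21. At day 0, day 5 and day 21 the test called 0 members, against 7.27%, 9.28% and 9.00% of all genes, and at day 5, 4 members had an unadjusted p under 0.05. At day 12 it called 1 member, mt-Tt, lower in cone cells, with 5, 8 and 11 counts against 58, 24 and 36 in rod cells, a log2 difference of -2.00 (SE 0.47, adjusted p by edgeR 0.0059), while 10.1% of all genes were called. mt-Tt was not tested with a filter at a mean of 1 CPM, which leaves 0 members called, and it was not called in a fit of the compared libraries alone.

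At day 35, 7 members were called, all lower in cone cells, against 12.3% of all genes called and 4.51% called lower. They were 6 mRNAs and mt-Tp. mt-Co1 stood at 2622, 5130.1 and 3409 CPM in cone libraries and at 5985, 5377 and 7956 CPM in rod libraries, without overlap, a log2 difference of -0.79 (SE 0.25, adjusted p by edgeR 0.0386). mt-Nd2 stood at 928, 2017 and 1292 CPM against 2054, 2189.8 and 3218 CPM, also without overlap, a log2 difference of -0.82 (SE 0.24, adjusted p by edgeR 0.0262). mt-Cytb (log2 -0.81, SE 0.26), mt-Nd1 (-0.79, SE 0.26) and mt-Co2 (-0.96, SE 0.30) were called at adjusted p by edgeR of 0.0427, 0.0424 and 0.0349. mt-Nd6 (-0.83, SE 0.28, adjusted p by edgeR 0.0498) was called although its libraries overlapped. mt-Nd4 (-0.73, SE 0.26) and mt-Nd5 (-0.65, SE 0.26) were not called at adjusted p by edgeR of 0.0679 and 0.112. The rRNAs had log2 differences of -0.65 and -0.64 (SE 0.25 and 0.24) and were not called either. mt-Tp gave 12, 35 and 18 counts in cone against 61, 45 and 111 in rod libraries, a log2 difference of -1.55 (SE 0.38, adjusted p by edgeR 0.0073). The limit on strands given above holds for this call of mt-Tp and for that of mt-Nd6. The 3 cone and 3 rod libraries did not overlap in 8 of the 13 mRNAs, against 27.9% of all genes.

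The calls of day 35 rested on single libraries. Cone replicate 2 was the highest of its group in mRNA share (1.68%), and without it 13 members were called. No member was called without cone replicate 1 or rod replicate 3, 1 without cone replicate 3, 3 without rod replicate 1, and 0 in a fit of the 6 libraries alone. Markers of other cells differed between these groups as well. The 8 mesenchyme markers summed to 2881, 536 and 3726 CPM in the 3 cone libraries and to 304, 751 and 237 CPM in the rod libraries, and 6 of the 8 were called higher in cone cells. The cone library with the lowest mesenchyme sum, replicate 2, had the highest mitochondrial mRNA share of the cone libraries. The order did not hold between the others. Cone replicate 3, with the highest sum, had a higher share (1.19%) than cone replicate 1 (0.847%). Rod replicate 2 was above cone replicate 2 in both sum and share (1.80%). The 7 microglia markers summed to 20.9 to 75.1 CPM in cone and 1.44 to 2.91 CPM in rod libraries. All 5 that were tested were called higher in cone cells. Of the 18150 genes tested, 1411 were called higher in cone cells and 818 lower. None of these mesenchyme and microglia markers was at 0 in either group, and 3 of the 9 progenitor markers were called lower in cone cells. The part of these cells in the result was not tested.

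Over the mean of days 5 to 35, 7 members were called lower in cone cells and 0 higher, against 12.2% of all genes called lower and 27.8% called. They were mt-Nd2 (log2 -0.46, adjusted p by edgeR 0.00494), mt-Co1 (-0.45, 0.00758), mt-Nd4 (-0.43, 0.0143), mt-Cytb (-0.43, 0.0153), mt-Nd1 (-0.40, 0.0195), mt-Co2 (-0.45, 0.0251) and mt-Tt (-1.05, 0.00185). These differences were about 1.32-fold to 1.38-fold for the mRNAs. mt-Nd5 (-0.32, SE 0.13), mt-Nd6 (-0.17, SE 0.14) and the rRNAs (-0.32 and -0.28, SE 0.12 each) were not called. The median over the 13 mRNAs was -0.43, beside 0.01 over all genes. Over the same mean 7 of the 9 progenitor markers were called lower and 5 of the 8 mesenchyme markers higher in cone cells. Of the 18150 genes tested, 2223 were called lower and 2825 higher. The part of these markers was not tested. Without cone replicate 2 of day 35 the number of members called was 13, and without rod replicate 2 of day 12 it was 11. A test of whether the difference between cone and rod cells changed with day called 0 members, against 9.22% of all genes, with 1 member under an unadjusted p of 0.05 (mt-Tp, p by edgeR 0.0197, adjusted 0.113). The larger difference at day 35 is thus not shown to exceed that of other days.

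**Figure D4:**
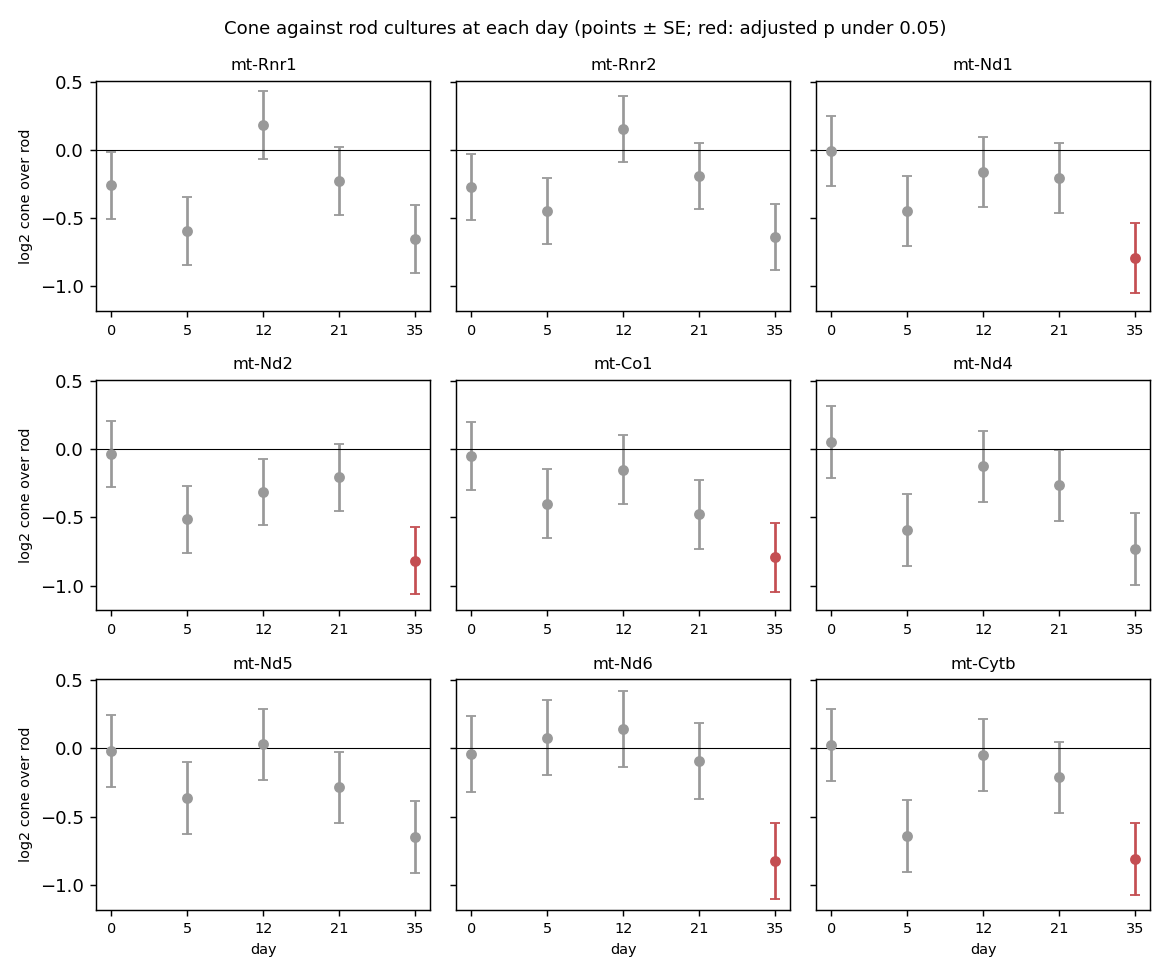
Log2 difference of cone over rod cells for the 2 rRNAs and the 7 abundant mRNAs at days 0 (primed), 5, 12, 21 and 35, which are drawn at equal distances. Points are the fitted values, bars the SE, and red marks an adjusted p under 0.05. At day 35 the mRNAs lie between -0.83 and -0.65, and 5 of the 7 are called.

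Few or no mitochondrial genes differed between primed and untreated cells by the test. Cone primed against untreated cells gave 0 members called and 0.00% of all genes by edgeR, with 1 member at an unadjusted p under 0.05, and DESeq2 called 0 genes as well. Rod primed against untreated cells gave 1 member, mt-Tm, at 5, 1 and 4 counts against 4, 116 and 42, against 10.3% of all genes. Its log2 difference was -3.38 (SE 0.97, adjusted p by edgeR 0.0251), although the libraries overlap, and the call was lost without untreated replicate 2 or without rod primed replicate 2 or 3. Without untreated replicate 1, 2 members were called.

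At day 12, where all 7 abundant mitochondrial mRNAs were called higher, many nuclear genes for the same complexes were called lower. A list of 76 nuclear genes for subunits of complexes I to V was set beside the mRNAs. At day 12, 40 of the 76 were called lower and 0 higher in cone cells, and 46 lower and 0 higher in rod cells, against 21.7% and 18.2% of all genes called lower. The medians over the list were -0.41 and -0.44 on the log2 scale, beside 0.03 and 0.08 over all genes. At day 5, 46 were called lower and 0 higher in cone cells and 38 lower and 1 higher in rod cells, against 10.2% and 8.79% of all genes called lower. At day 21, 28 were called lower and 0 higher in cone cells and 54 lower and 0 higher in rod cells, against 23.2% and 23.6%. At day 35 in rod cells 35 were called lower and 0 higher with a median of -0.33, while in cone cells 7 were called lower and 8 higher with a median of -0.07. Of all genes, 26.2% in rod and 26.5% in cone cells were called lower on that day. By complex, 22 of 36 genes of complex I, 2 of 4 of complex II, 4 of 9 of complex III, 7 of 11 of complex IV and 11 of 16 of complex V were lower in rod cells at day 12. Ndufb8 and Ndufb5, accessory subunits of complex I, fell by 1.21 (SE 0.20) and 0.86 (SE 0.12) on the log2 scale in rod cells at day 35. Cox7a2 and Cox5b of complex IV fell by 0.59 (SE 0.20) and 0.58 (SE 0.17) in the same comparison. In cone cells at day 35 Ndufa13 and Uqcr11, of complexes I and III, rose by log2 0.62 (SE 0.15) and 0.52 (SE 0.21). Ndufb8 and Ndufb5 fell there as in rod cells, by 0.89 (SE 0.20) and 0.75 (SE 0.12). Between cone and rod cells the test called 0 of the 76 at any of the 5 days. It also called 0 over the mean of days 5 to 35, where the median was 0.02. Of all genes, 7.27%, 9.28%, 10.1%, 9.00% and 12.3% were called at days 0, 5, 12, 21 and 35, and 27.8% over that mean.

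**Figure D5:**
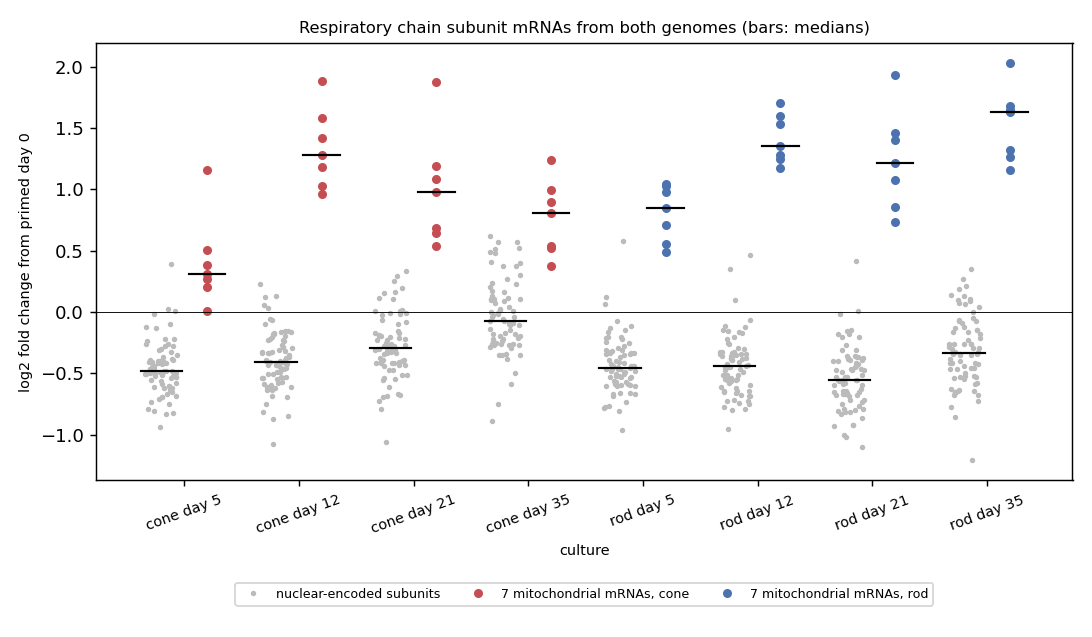
Log2 fold change against the primed cells of the same condition by day. Each grey point is 1 of the 76 nuclear subunit genes of complexes I to V, each red (cone) or blue (rod) point is 1 of the 7 abundant mitochondrial mRNAs, and bars are medians. At day 12 the mitochondrial medians are 1.28 in cone and 1.35 in rod cells and the nuclear medians -0.41 and -0.44.

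The nuclear genes that copy and process mitochondrial RNA moved in both directions. Polrmt, the mitochondrial RNA polymerase, was at 23.3, 20.5 and 20.2 CPM in cone primed libraries and 14.9, 18.2 and 17.3 CPM at day 12, and fell by 0.34 on the log2 scale (SE 0.12, adjusted p by edgeR 0.0268). Polrmt was not called in rod cells of day 12 or in either condition at day 35. Tfam, which packages mitochondrial DNA and starts its transcription, was at 37.4, 35.9 and 38.2 CPM in rod primed libraries and 21.7, 25.8 and 24.0 CPM at day 35, and fell by 0.64 (SE 0.11) in rod and 0.58 (SE 0.11) in cone cells. Lrpprc, which stabilises mitochondrial mRNAs, fell by 0.52 in rod and 0.43 in cone cells at day 35 (SE 0.07 each). Ppargc1a, a coactivator of mitochondrial biogenesis, went the other way. It was at 5.16, 5.17 and 5.24 CPM in cone primed and 7.87, 9.07 and 7.99 CPM in rod primed libraries, and at 10.3, 15.1 and 11.8 CPM in cone and 25.6, 24.3 and 17.7 CPM in rod libraries of day 12. It rose by log2 1.26 and 1.44 at day 12 (SE 0.21 each) and by 0.83 and 1.00 at day 35 (SE 0.22 and 0.21) in cone and rod cells. At day 5 it rose by log2 1.42 in cone and 1.02 in rod cells (SE 0.21 each). Over the mean of days 5 to 35 it was lower in cone than in rod cells by log2 -0.56 (SE 0.10, adjusted p by edgeR 0.000114). A relation of Ppargc1a to the levels of the mitochondrial mRNAs was not tested.

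Over the 49 genes for mitochondrial transcription, replication, RNA processing and biogenesis, 7 were called higher and 15 lower in cone cells at day 12, and 5 higher and 15 lower in rod cells, beside 26.7% higher and 21.7% lower in cone and 24.2% higher and 18.2% lower in rod cells over all genes. At day 35 the counts were 9 higher and 17 lower in cone and 7 higher and 17 lower in rod cells, beside 31.1% and 26.5% of all genes in cone and 29.4% and 26.2% in rod cells. Those that rose at day 12 included Polg and Polg2, subunits of the mitochondrial DNA polymerase, by log2 0.97 and 1.17 in cone and 0.98 and 0.95 in rod cells. Rrm2b, a subunit of a ribonucleotide reductase that supplies nucleotides for mitochondrial DNA, rose by log2 0.98 and 1.13 at day 35 in cone and rod cells (SE 0.13 each). Esrrg, a nuclear receptor that acts with Ppargc1a, fell by 3.82 and 4.35 in the same groups. Mtpap, the mitochondrial poly(A) polymerase, fell by 0.76 and 0.67 (SE 0.12 each). Between cone and rod cells over the mean of days, 10 of the 49 were called lower in cone cells and 0 higher, beside 12.2% of all genes called lower. Supv3l1 and Pnpt1, the helicase and the nuclease that degrade mitochondrial RNA, were lower by log2 -0.48 (SE 0.05) and -0.34 (SE 0.06). Of 77 tested genes for mitochondrial ribosomal proteins, 35 fell and 4 rose in cone cells at day 12 and 43 fell and 3 rose in rod cells, beside 21.7% and 18.2% of all genes called lower and 26.7% and 24.2% called higher. Mrps6 rose most, by log2 2.63 in cone and 0.89 in rod cells at day 12 (SE 0.23 each), and its gene shares its position with that of Slc5a3 on the same strand, so reads may be uncertain.

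The deposited TPM values rank the mitochondrial genes differently from the counts. The 9 minus-strand genes, which are mt-Nd6 and 8 tRNAs, held 0.0803% to 0.310% of mitochondrial counts per library but 82.2% to 91.6% of mitochondrial TPM. mt-Nd6 had a median of 13465 TPM, while mt-Co1 had 148 and mt-Rnr2 had 809. mt-Ts1, a minus-strand tRNA gene with at most 4 counts in any library, had a median of 18939 TPM. The strand settings of the TPM and of the counts are not given in the sources used here. All results above are from counts.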

How the data were processed

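Total RNA from 33 samples was extracted and made into libraries with Takara low-input kits, per the labels' protocols. The authors deposited read counts per gene (whole numbers) and, per the file headers, TPM, FPKM and coverage. HISAT2, StringTie, HTSeq and build GRCm38 are named in the submitters' processing notes, with no version, role or strand setting. Per the labels, groups are treatment and day. Counts were filtered with filterByExpr of edgeR (minimum count 10, 18150 genes left), scaled by TMM and fitted once over 33 libraries in 11 groups with the quasi-likelihood test of edgeR 4.0.16 (limma 3.58.1, R 4.3.3). Calls were made at a Benjamini-Hochberg adjusted p under 0.05. The procedure was tested on simulated data. SE is the absolute log2 fold change divided by the square root of the F statistic of that test. Shares have no test. Tables and figures used Python 3.11.15, numpy 2.4.6, pandas 2.3.3 and matplotlib 3.10.9. Nuclear copies were aligned to GENCODE M21 transcripts at 90% identity or more over at least 100 bases. All 13 mRNAs, both rRNAs and tRNAs with a mean of at least 10 counts are named; from each list up to 2 called genes per direction are named if their mean log2 CPM is 1 or more, and Polrmt, Tfam, Lrpprc and Ppargc1a always. The members and lists were chosen with earlier results of these data known. Alternatives were RLE scaling, nuclear-only library sizes, other filters, DESeq2 1.42.0, a replicate block, compared libraries only, other share denominators and leaving out each library. A wider rRNA-like denominator was added after seeing the data. Counts include PCR copies, so floors and intervals cover counting error only.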

Additional observations from a re-analysis of the deposited data

How the results depend on the processing

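The numbers of mitochondrial genes called are small, and some depend on the fit. Where only the compared libraries were fitted, 1 member was called between cone and rod cells at day 5, 0 at day 12 and 0 at day 35, 4 in cone cells and 10 in rod cells at day 5 against primed cells. With a filter at a mean of 1 CPM, 0 were called between cone and rod cells at day 12 and 2 in cone cells at day 5. DESeq2 called 2 in rod primed against untreated cells, 2 in cone cells at day 5 and 7 in rod cells at day 5, and with no filter 2 were called in rod primed against untreated cells. With 1 library left out, the members called ranged from 0 to 2 for the change of the cone minus rod difference with day, from 0 to 0 at day 0, 0 to 0 at day 5, 1 to 2 at day 12, 0 to 0 at day 21 and 0 to 13 at day 35 for cone against rod, and from 7 to 13 for the mean of days. They ranged from 0 to 0 for cone primed and 0 to 2 for rod primed against untreated cells. Against primed cells they ranged from 1 to 1, 9 to 10, 4 to 7 and 4 to 10 in cone cells and from 0 to 5, 10 to 13, 8 to 10 and 11 to 12 in rod cells at days 5, 12, 21 and 35. The change with day had 2 members called without cone replicate 2 of day 35 and 1 without rod replicate 1 of day 12, and cone against rod at day 12 had 2 without cone replicate 2 of day 12. The fit with replicate number as a block called 6 members at day 35, 8 for the mean of days 5 to 35, and changed no other count of members. Same-numbered libraries had a median correlation of deviations of 0.016 over 165 pairs, so the number was not taken to pair them. In shares of deposited TPM, the log2 ratio of day 35 to primed cells was 0.86 for mRNAs and 0.94 for tRNAs in cone cells and 1.84 for tRNAs in rod cells. In composition by TPM, mt-Nd1, mt-Nd5 and mt-Nd6 differed by -0.0972, 0.378 and 3.22 percentage points, against -2.84, 3.17 and 0.465 by counts. These sizes have unlike bases, since mt-Nd6 held far more TPM than mt-Nd1 (medians 13465 and 88.8). With 1 library left out, the differences by counts ran over -2.95 to -2.69, 2.95 to 3.47 and 0.438 to 0.489. No log2 fold change of a called member changed direction under any alternative run, whereas mt-Nd2 in cone cells at day 5, not called at log2 0.01, was at -0.01 with the compared libraries only. Over all genes, a fit of the compared libraries alone called 2084, 2780, 363 and 1456 genes between cone and rod cells at days 0, 5, 12 and 35, against 1320, 1685, 1833 and 2229, and 2912 against 1864 in rod primed against untreated cells. The cause was not tested for any of these. Low tRNA counts limit the precision of every tRNA value.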
